A study of Mus musculus with 6 samples.

Results

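The 10 carboxylesterase genes described here (Ces1b, Ces1c, Ces1d, Ces1e, Ces1f, Ces1g, Ces2a, Ces2e, Ces3a and Ces3b) were chosen by symbol from a table of read counts for 17275 genes. That table lists 17 Ces symbols, and all 10 chosen genes passed the filter on low counts, with 12343 genes in all. The counts come from 6 RNA-seq libraries of sorted hepatocytes, with 3 in each group of the sort. All mice were C57BL/6 and carried Axin2rtTA and TetO-H2B-GFP, so that the Axin2 promoter drives a doxycycline-dependent activator and cells in which it is active gain a fluorescent histone (H2B-GFP) in their nuclei. Axin2 is a target and inhibitor of Wnt/β-catenin signalling. The mice were given doxycycline for 7 days; their age is labelled as postnatal day 63 and given as 8 weeks in the protocol. Non-parenchymal cells were removed, and GFP-positive and GFP-negative hepatocytes were sorted as the Axin2-positive and Axin2-negative groups. The fluorescent histone reports promoter activity over the labelling period rather than at the moment of the sort. Libraries are numbered 1, 2 and 3 by a sequencing index that occurs once in each group, and the labels do not say whether they came from separate or pooled mice.

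Carboxylesterases are serine hydrolases that cut ester and amide bonds in drugs, pesticides and lipids, and most are held in the lumen of the endoplasmic reticulum. In mice the family has expanded by tandem duplication, and the liver is its main site together with the intestine. Ces1 enzymes prefer esters with a large acyl group and include triglyceride hydrolases, whereas Ces2 enzymes prefer esters with a small acyl group and a large alcohol. In the liver, enzymes of drug breakdown are known to be richer near the central vein, where Wnt signalling is strong.

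All 10 genes lie on chromosome 8 (GRCm38, GENCODE annotation). The 6 Ces1 genes stand on the minus strand between 93056728 and 93337308, in the order Ces1b, Ces1c, Ces1d, Ces1e, Ces1f and Ces1g. Ces2a, Ces2e, Ces3a and Ces3b stand on the plus strand between 104734003 and 105093929. Tandem copies can share reads, and how the authors' counting treated such reads is not given in the sources used here. Of all 50-base words in the longest coding transcript, 30.9% for Ces3a and 26.1% for Ces3b also occurred in another Ces transcript. The share was 13.4% for Ces1c and 10.8% for Ces1b, and 0.533% to 3.36% for the other 6. With 100-base words it was 9.09% for Ces3a, 7.68% for Ces3b, 1.39% for Ces1c, 1.29% for Ces1b and 0% for the other 6. Reads of Ces3a and Ces3b, and to a lesser extent of Ces1b and Ces1c, are therefore the least certain to be assigned to the right gene. The longest identical stretches of these pairs are shown because no read within them tells the copies apart. That of Ces3a and Ces3b is 194 bases long and lies in the coding part of exons 4 and 5 of each (Ces3a from 105050560 to 105051605, Ces3b from 105085634 to 105086695). That of Ces1b and Ces1c is 118 bases long and lies in the coding part of the last exon (93056906 to 93057023 in exon 14 of Ces1b, 93099184 to 93099301 in exon 13 of Ces1c). Both are printed 5′ to 3′ on the coding strand, from the GENCODE transcripts, with no base marked.
Ces3a and Ces3b: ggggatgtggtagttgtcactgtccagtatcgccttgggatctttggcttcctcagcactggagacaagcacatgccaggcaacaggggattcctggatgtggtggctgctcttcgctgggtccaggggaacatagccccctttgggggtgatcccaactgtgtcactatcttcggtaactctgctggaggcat
Ces1b and Ces1c: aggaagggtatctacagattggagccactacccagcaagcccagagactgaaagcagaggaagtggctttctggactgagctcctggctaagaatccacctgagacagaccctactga

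RefSeq promoter windows (GRCm38.p6) were at hand for 7 of the 10 genes: Ces1b, Ces1c, Ces1e, Ces1g, Ces2a, Ces2e and Ces3b. The 250 bases before the start were searched on both strands for 6 motifs. TTGCNNAA, a C/EBP-type motif, was found in 4 of the 7 (Ces1b, Ces1c, Ces2a and Ces2e), and in 9.56% of all 32851 windows of that length. In Ces2e the match was on the opposite strand and reads TTNNGCAA along the gene. In Ces3b the TATA box letters TATAAA lay 30 to 25 bases before the start, in the direction of the gene. In Ces1g they lay 26 to 21 bases before the RefSeq start on the opposite strand, reading TTTATA along the gene. Both windows overlap an annotated exon, and 12.4% of all windows held the letters on either strand. The nuclear receptor half-site AGGTCA occurred in Ces2a alone (14.0% of all windows), and the HNF1 half-site GTTAAT in Ces3b alone (6.43%). The TCF/LEF motif ATCAAAG (3.21% of all windows) and the antioxidant response element core TGACNNNGC (10.2%) were in none of the 7 windows. No search motif overlapped another in these windows. A match describes letters and is not a binding site. 3 windows are printed 5′ to 3′ in the direction of the gene with the C/EBP-type letters in capitals: that of Ces1c, the most abundant gene, and those of Ces1e and Ces2e, whose counts lay on opposite sides of their partners in 2 replicates. Ces1c is at chr8:93131284-93131533 (minus strand), Ces1e at chr8:93229620-93229869 (minus strand) and Ces2e at chr8:104926010-104926259 (plus strand); the Ces1e window held none of the 6 motifs.
Ces1c: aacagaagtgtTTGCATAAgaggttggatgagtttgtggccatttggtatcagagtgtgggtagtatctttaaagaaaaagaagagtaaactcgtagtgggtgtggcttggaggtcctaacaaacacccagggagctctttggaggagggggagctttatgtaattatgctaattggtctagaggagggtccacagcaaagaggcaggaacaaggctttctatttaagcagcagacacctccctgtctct
Ces1e: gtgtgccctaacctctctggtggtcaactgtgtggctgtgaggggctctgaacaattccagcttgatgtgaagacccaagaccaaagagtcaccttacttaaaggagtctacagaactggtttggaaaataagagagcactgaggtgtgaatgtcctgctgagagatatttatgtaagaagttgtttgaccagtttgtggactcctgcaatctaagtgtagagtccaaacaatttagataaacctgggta
Ces2e: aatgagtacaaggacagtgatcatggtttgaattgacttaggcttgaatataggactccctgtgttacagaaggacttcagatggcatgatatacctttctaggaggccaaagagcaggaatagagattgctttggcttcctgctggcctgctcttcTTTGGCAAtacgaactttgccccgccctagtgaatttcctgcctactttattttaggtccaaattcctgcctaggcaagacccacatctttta

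Levels of different genes were compared as CPM (reads relative to library size, scaled by TMM) per kb of annotated exon. Ces1c, which encodes the carboxylesterase that mouse liver releases into blood plasma, was highest, at 1878 ± 113 CPM per kb in Axin2-positive-labelled libraries and 1481 ± 370 CPM per kb in Axin2-negative-labelled libraries (SD, n = 3 each). It ranked between 16th and 43rd of all genes by reads in single libraries. Per kb it made up 32.8% to 56.1% of the summed level of the 10 genes. Ces3a followed at 852 ± 437 CPM per kb in Axin2-positive-labelled libraries and 607 ± 341 CPM per kb in Axin2-negative-labelled libraries (SD, n = 3 each). Ces1d, the triglyceride hydrolase, came next at 320 ± 54.9 CPM per kb in Axin2-positive-labelled and 255 ± 67.9 CPM per kb in Axin2-negative-labelled libraries (SD, n = 3 each). Ces3b, Ces1g, Ces2a and Ces1f had group means from 123 to 210 CPM per kb, and Ces1e, Ces1b and Ces2e from 49.3 to 76.0 CPM per kb. The order below Ces1d depends on the length used: per kb of its longest annotated transcript, Ces1f averaged 210.1 CPM in Axin2-positive-labelled libraries, against 123 CPM per kb of exon, and so stood above Ces3b (198), Ces1g (178) and Ces2a (163) on that scale. Ces3a and Ces1d had ranges over 6 libraries that did not touch, and so had Ces1f and Ces1e. The order Ces1c above Ces3a held in 6 of 6 libraries although their ranges overlapped. Ces1d stood above Ces3b in 5 libraries and Ces3b above Ces1g in 5. The other neighbours changed places between libraries: Ces1g above Ces2a in 4 of 6, Ces2a above Ces1f in 2 of 6, Ces1e above Ces1b in 3 of 6 and Ces1b above Ces2e in 4 of 6.

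**Figure D1:**
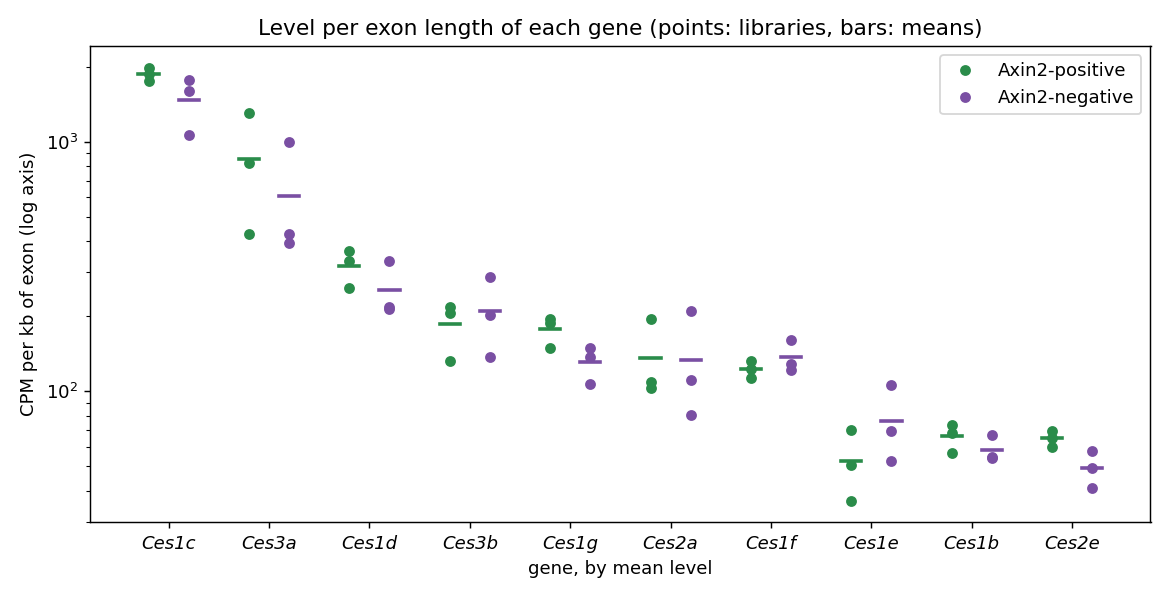
Level of each gene in CPM per kb of exon on a log axis, with a point for each of 3 libraries per group and a bar at the group mean (Axin2-positive left, Axin2-negative right). Ces1c lies highest, at 1066 to 1989 CPM per kb, and Ces1e, Ces1b and Ces2e lie lowest, at 36.5 to 106 CPM per kb.

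Axin2-positive-labelled libraries held 77994792 to 103386648 reads and Axin2-negative-labelled libraries 75882611 to 101814611 reads. The sorted gene Axin2 was at 2.40, 22.6 and 24.2 CPM in Axin2-positive-labelled libraries 1, 2 and 3, against 3.04, 3.74 and 5.75 CPM in Axin2-negative-labelled libraries 1, 2 and 3. The Axin2-positive-labelled library 1 thus goes against its label. Values within each replicate number are given for each of the 10 genes, and the fold changes, calls and summed read share are also given without the pair of replicate 1. The libraries of replicate 1 were nearly alike: over genes with at least 20 reads, the median squared deviation between them in units of counting variance was 1.16, where counting error alone gives 0.455. It was 13.9 in replicate 2 and 9.48 in replicate 3. Replicate 2 also differed from the others by sex: Ddx3y, a Y-linked gene, had 7164 reads in its Axin2-positive-labelled library and 6759 in its Axin2-negative-labelled one, and 0 to 3 reads in the other 4 libraries.

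The comparison asks which genes differ with Axin2 promoter activity in hepatocytes. Over 6 libraries, 0 of the 10 carboxylesterases were called higher and 0 lower by edgeR's quasi-likelihood test (Benjamini-Hochberg adjusted p under 0.05), with 0.0% of all 12343 genes called in either direction. At an unadjusted p under 0.05 the test listed 279 of all genes and 1 of the 10, Ces2e. DESeq2, limma-voom and the fit with a replicate block also called 0 of the 10 and 0 of all genes. In replicates 2 and 3, however, Ces1b, Ces1c, Ces1d, Ces1g, Ces2e and Ces3a had higher counts in both Axin2-positive-labelled libraries than in their partners, and Ces1e and Ces3b lower counts. Of all genes, 35.3% were higher and 36.5% lower in both of these pairs. Ces1b, Ces1c, Ces1g and Ces2e were higher in all 3 pairs, as were 19.5% of all genes, and 0 of the 10 were lower in all 3, against 20.1% of all genes. The median log2 fold change over 6 libraries was 0.25 for the 10 genes and -0.0047 for all genes tested. Within replicates the median log2 difference of the 10 was 0.02, 0.31 and 0.34 in replicates 1, 2 and 3, and that of all genes tested 0.00039, -0.0069 and -0.0030. In sorted bulk samples, fewer cells with the RNA and less RNA per cell cannot be told apart.

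**Figure D2:**
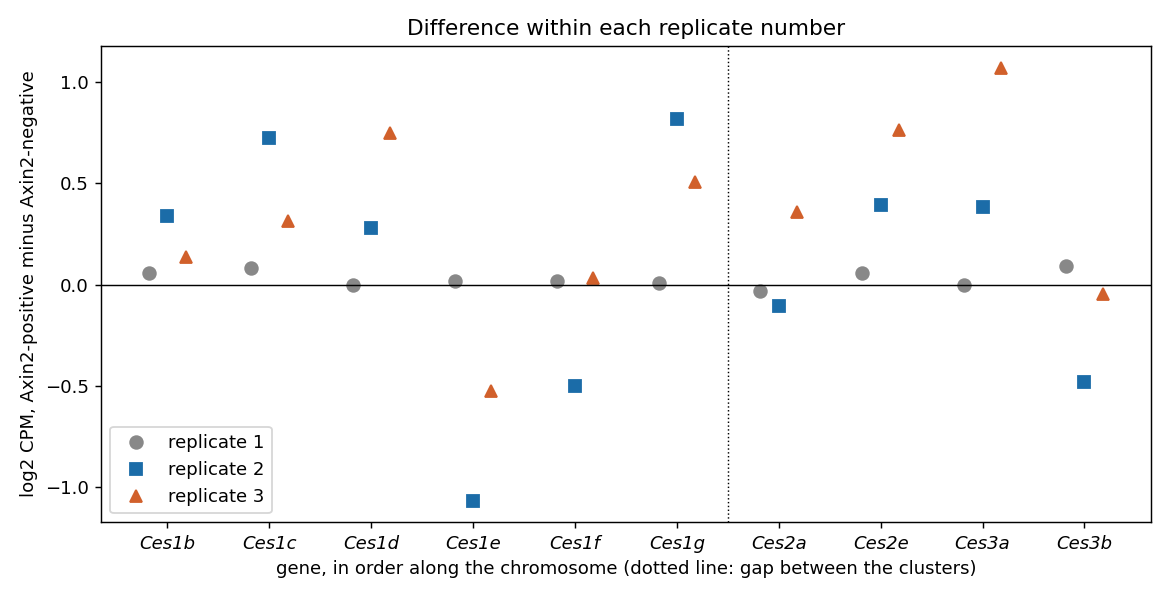
Log2 CPM difference, Axin2-positive minus Axin2-negative library of the same replicate number, for each gene in order along chromosome 8. Replicate 1 lies between -0.03 and 0.09 for all 10 genes, while replicate 2 runs from -1.07 (Ces1e) to 0.82 (Ces1g) and replicate 3 from -0.52 (Ces1e) to 1.07 (Ces3a).

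Of the Ces1 genes, Ces1b, Ces1c, Ces1d and Ces1g had higher counts in the pairs of replicates 2 and 3, and Ces1e lower counts. Ces1f had a log2 difference of -0.50 in replicate 2 and 0.04 in replicate 3. Ces1g encodes an esterase whose loss in mice raises triglyceride in liver and blood. It was at 358, 450 and 466 CPM in Axin2-positive-labelled libraries 1, 2 and 3, against 356, 256 and 328 CPM in Axin2-negative-labelled libraries 1, 2 and 3. The groups did not overlap, although the margin came down to 358 against 356 CPM within replicate 1. Its log2 fold change was 0.44 (SE 0.18; edgeR adjusted p = 0.999). Ces1d, which mobilises stored triglyceride for lipoprotein secretion, was at 790, 614 and 868 CPM in Axin2-positive-labelled libraries, against 790, 506 and 517 CPM in Axin2-negative-labelled libraries. The groups overlapped, and the pair of replicate 3 showed the widest gap, with a log2 difference of 0.75 against 0.28 in replicate 2 and -0.00047 in replicate 1. Over 6 libraries the log2 fold change of Ces1d was 0.33 (SE 0.24; edgeR adjusted p = 0.999).

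Ces1c, the plasma esterase, was at 4365, 4099 and 4621 CPM in Axin2-positive-labelled libraries 1, 2 and 3, against 4125, 2477 and 3721 CPM in Axin2-negative-labelled libraries. The Axin2-negative-labelled library 2 was lowest, and the groups overlapped only in that Axin2-positive 2 lay just below Axin2-negative 1. The log2 difference was 0.08, 0.73 and 0.31 in replicates 1, 2 and 3, and the log2 fold change over 6 libraries 0.34 (SE 0.22; edgeR adjusted p = 0.999). Ces1b, its neighbour, had 111, 134 and 144 CPM in Axin2-positive-labelled libraries and 107, 106 and 131 CPM in Axin2-negative-labelled libraries. These groups overlapped, and the log2 fold change was 0.18 (SE 0.15; edgeR adjusted p = 0.999).

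Ces1e ran the other way. It encodes egasyn, the esterase that holds β-glucuronidase in the endoplasmic reticulum. Its levels were 154, 111 and 79.9 CPM in Axin2-positive-labelled libraries 1, 2 and 3, against 152, 233 and 115 CPM in Axin2-negative-labelled libraries. Replicates 2 and 3 were both lower in the Axin2-positive library, with log2 differences of -1.07 and -0.52, while replicate 1 stood at 0.02 and the groups overlapped. The log2 fold change over 6 libraries was -0.53 (SE 0.34; edgeR adjusted p = 0.999). Gusb, the gene of β-glucuronidase, had 22.5, 13.5 and 15.0 CPM in Axin2-positive-labelled libraries, against 22.6, 30.7 and 26.7 CPM in Axin2-negative-labelled libraries. Gusb likewise was lower in replicates 2 and 3 and level in replicate 1, with a log2 fold change over 6 libraries of -0.65 (SE 0.22; edgeR adjusted p = 0.999). The ratio of Ces1g to Ces1e counts, which needs no scaling between libraries, was 2.33, 4.04 and 5.84 in Axin2-positive-labelled libraries 1, 2 and 3, against 2.35, 1.10 and 2.85 in Axin2-negative-labelled libraries. The ratio restates the opposite signs of Ces1g and Ces1e in replicates 2 and 3 and adds no independent evidence. Only Ces1f lies between these genes on the chromosome. Ces1f had 405, 374 and 435 CPM in Axin2-positive-labelled libraries and 400, 528 and 424 CPM in Axin2-negative-labelled libraries. Its pairs differed in sign, with log2 differences of 0.02, -0.50 and 0.04, and the log2 fold change was -0.16 (SE 0.16; edgeR adjusted p = 0.999).

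Ces2e, which encodes an esterase known to cut pyrethroid insecticides, was at 162, 175 and 188 CPM in Axin2-positive-labelled libraries 1, 2 and 3, against 155, 133 and 111 CPM in Axin2-negative-labelled libraries. Every Axin2-positive-labelled library lay above every other. Its log2 fold change was 0.39 (SE 0.16; edgeR adjusted p = 0.999), and the log2 difference was 0.06, 0.39 and 0.76 in replicates 1, 2 and 3. Ces1g and Ces2e were the only 2 of the 10 genes whose groups did not overlap, both higher. Over all genes tested, 3.44% were higher and 3.77% lower without overlap. Ces2a, another Ces2 enzyme, had 257, 460 and 244 CPM in Axin2-positive-labelled libraries and 262, 494 and 190 CPM in Axin2-negative-labelled libraries. Both of its libraries of replicate 2 stood above the other 4, and its log2 fold change was 0.02 (SE 0.43; edgeR adjusted p = 0.999).

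Ces3a had the widest spread between libraries of the 10 genes. It was at 1127, 3421 and 2166 CPM in Axin2-positive-labelled libraries 1, 2 and 3, against 1127, 2626 and 1030 CPM in Axin2-negative-labelled libraries. Replicate 3 differed by a fold of 2.10 and replicate 2 by a fold of 1.30, while replicate 1 was level and the groups overlapped. Its log2 fold change over 6 libraries was 0.49 (SE 0.53; edgeR adjusted p = 0.999). Ces3b had 557, 531 and 341 CPM in Axin2-positive-labelled libraries, against 522, 740 and 352 CPM in Axin2-negative-labelled libraries, with log2 differences of 0.09, -0.48 and -0.05. Its groups overlapped, and the log2 fold change was -0.18 (SE 0.33; edgeR adjusted p = 0.999). The ratio of Ces3a to Ces3b counts was 2.02, 6.44 and 6.35 in Axin2-positive-labelled libraries 1, 2 and 3, against 2.16, 3.55 and 2.92 in Axin2-negative-labelled libraries. This ratio likewise restates the opposite signs of Ces3a and Ces3b in replicates 2 and 3. Ces3a, like Ces2a, had both libraries of the male replicate 2 above the other 4. Of all genes, 14.9% showed that order, and 0 of the 10 had both libraries of replicate 2 below the others, against 17.2% of all genes. Replicate 2 also had the lowest endothelial marker sums of the 6 libraries, at 2.17 CPM (Axin2-positive) and 6.76 CPM (Axin2-negative). With a single male pair, sex, replicate number and other traits of replicate 2 cannot be told apart.

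**Figure D3:**
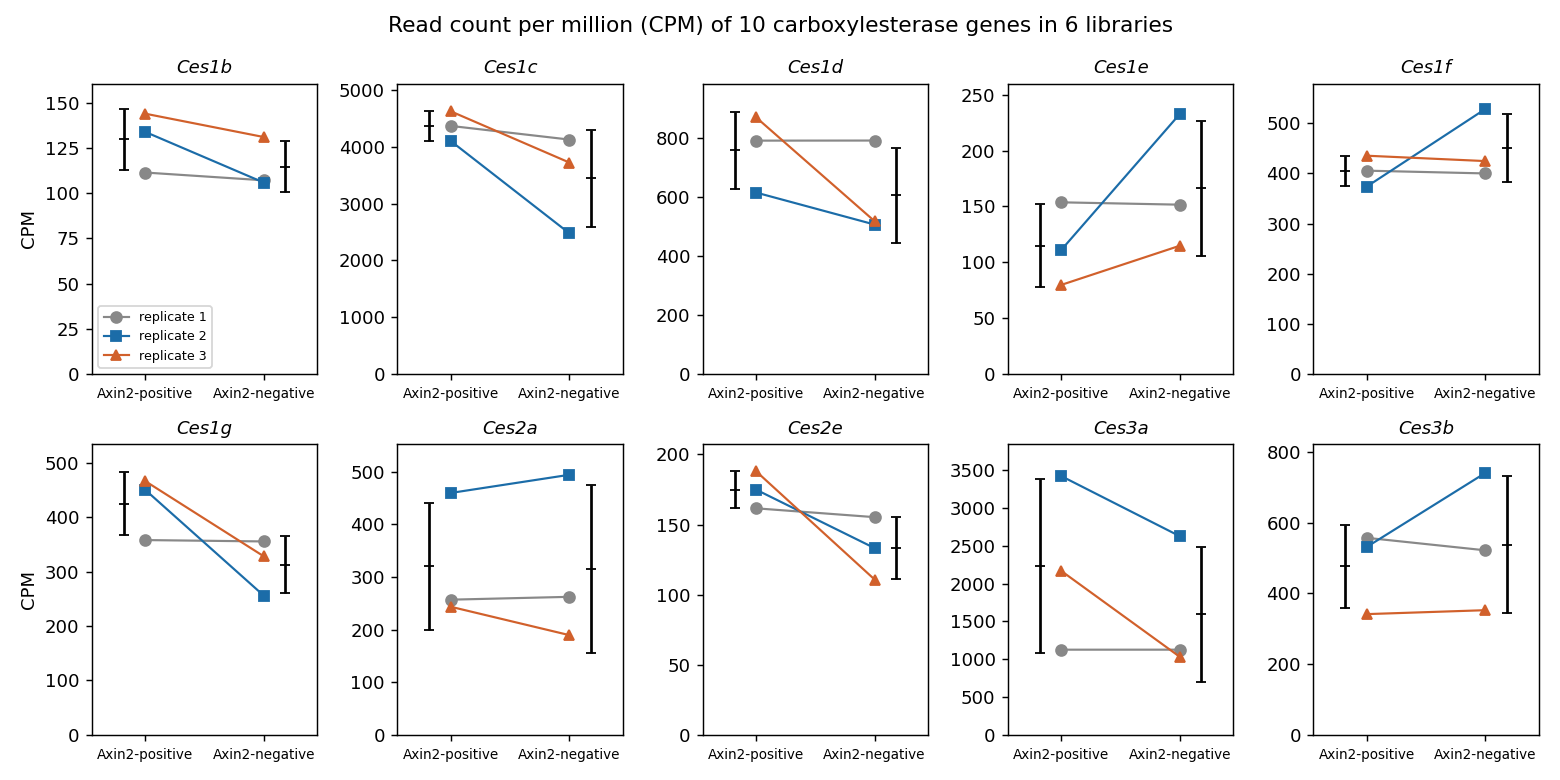
CPM of each gene in Axin2-positive-labelled libraries (left) and Axin2-negative (right), with a line joining libraries of the same replicate number and a black bar for the group mean and SD (n = 3 each). Lines of replicate 1 are nearly flat, Ces1g and Ces2e have no overlap between groups, and Ces2a and Ces3a are highest in replicate 2.

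The size of the differences within replicates can be set against the rest of the genes. In replicate 1, 0 of the 10 genes passed a fold of 1.5 in either direction, against 1.68% of all genes higher and 1.64% lower. In replicate 2, Ces1c (fold 1.66) and Ces1g (1.76) passed it upwards, against 7.67% of all genes, and Ces1e (0.478) downwards, against 12.5%. In replicate 3, Ces1d (1.68), Ces2e (1.70) and Ces3a (2.10) passed it upwards, against 5.95% of all genes, and 0 of the 10 downwards, against 10.5%. No gene of the 10 passed it in the same direction in both replicates, but the share of all genes that did so was not counted. Counting error contributed little, since the 10 genes had at least 6869 reads in every library and the counting SE of a log2 difference was at most 0.0226.

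Without the pair of replicate 1, the fit of replicates 2 and 3 with a replicate block, which rests on 1 residual degree of freedom, called Ces1g higher and Ces1e lower. Ces1g had a log2 fold change of 0.66 (SE 0.12; edgeR adjusted p = 0.0423) and Ces1e one of -0.79 (SE 0.16; edgeR adjusted p = 0.0472). These calls stand at 1 of 10 genes higher, beside 3.43% of all genes, and 1 of 10 lower, beside 4.01%. The pair of replicate 1 was left out after both its Axin2 levels and its small differences had been seen, so these calls give no independent evidence. Tested against a fold of 1.5, the same fit called 0 of the 10, with 0.791% of all genes higher and 0.888% lower. The other genes that were higher in both replicates were not called. Ces2e had a log2 fold change of 0.58 (SE 0.13, edgeR adjusted p = 0.0620) and Ces1c one of 0.52 (SE 0.12, edgeR adjusted p = 0.0697). Ces3a stood at 0.73 (SE 0.18, edgeR adjusted p = 0.0752) and Ces1d at 0.52 (SE 0.15, edgeR adjusted p = 0.0995). Ces1b stood at 0.24 (SE 0.11, edgeR adjusted p = 0.226). Ces3b (log2 fold change -0.26), Ces1f (-0.23) and Ces2a (0.13) had edgeR adjusted p-values of 0.306 to 0.622. The median of the 10 in that fit was 0.38, and that of all genes -0.0021.

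**Figure D4:**
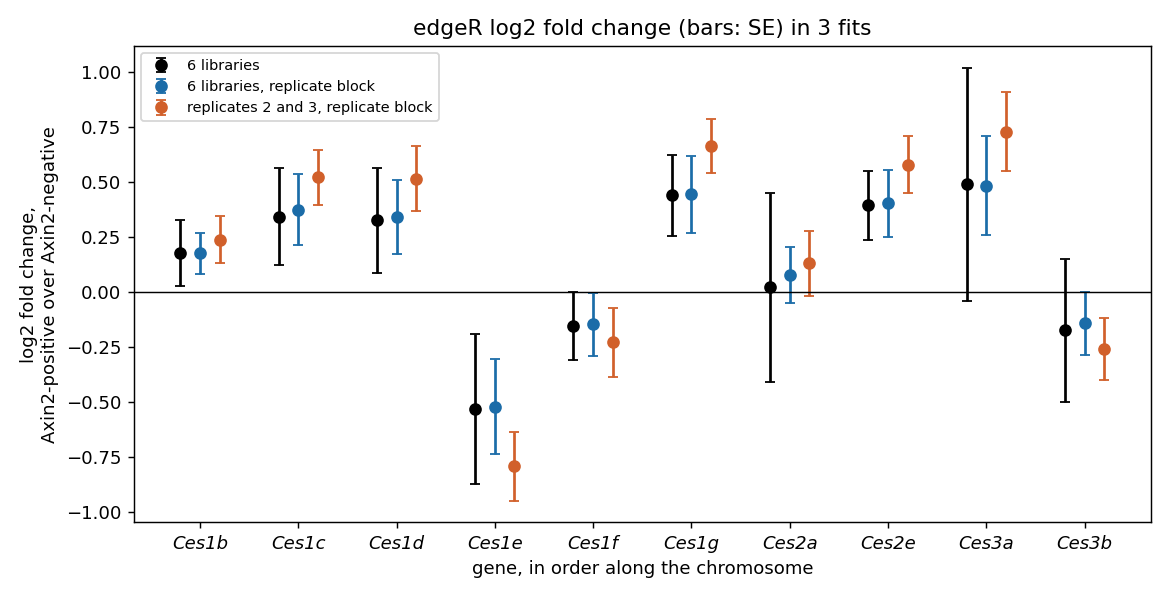
edgeR log2 fold change (Axin2-positive over Axin2-negative) with SE for each gene in 3 fits: 6 libraries, 6 libraries with a replicate block, and replicates 2 and 3 with a replicate block. Bars of the 6-library fit reach 0.53 for Ces3a; Ces1e lies lowest in all 3, and Ces1g and Ces3a lie highest in the fit of replicates 2 and 3.

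The authors' deposited table of transcript FPKM (1 value per group, all libraries pooled) called none of the 10 genes. In the authors' deposited table, Ces1g stood at 165 FPKM in the Axin2-positive group and 118 FPKM in the Axin2-negative group (p = 0.0926, q = 0.9995). Ces1e had 48.3 FPKM for Axin2-positive against 69.7 FPKM for Axin2-negative there, with the lowest p of the 10 genes (the authors' deposited table, p = 0.0383, q = 0.9995). For Ces3a the authors' deposited table lists a major transcript at 812 FPKM for Axin2-positive against 621 FPKM for Axin2-negative and a minor one at 115 FPKM for Axin2-positive against 103 FPKM for Axin2-negative, each with q = 0.9995.

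Summed over the 10 genes, carboxylesterase reads made up 0.779%, 1.05% and 0.986% of Axin2-positive-labelled libraries 1, 2 and 3, against 0.751%, 0.858% and 0.707% of Axin2-negative-labelled libraries. The mean share was 0.938% ± 0.142 in Axin2-positive-labelled and 0.772% ± 0.0775 in Axin2-negative-labelled libraries (SD, n = 3 each). A two-sided exact permutation test gave p = 0.2, and 3 against 3 cannot go below 0.1. The Axin2-positive library had the larger share in 3 of 3 pairs, and 1 library, Axin2-positive 1, lay within the range of the other group. On TMM-scaled library sizes, or on totals without the 20 most abundant genes, the groups did not overlap, and the exact p was 0.1 in both cases. Without the pair of replicate 1 the mean difference was 0.236 percentage points (exact permutation test, p = 0.333, the smallest that 2 against 2 can give). Ces1c supplied 52.7%, 39.5% and 48.4% of these reads in Axin2-positive-labelled libraries 1, 2 and 3, against 51.6%, 30.6% and 53.8% in Axin2-negative-labelled libraries. Ces3a supplied 13.6%, 33.0% and 22.7% in Axin2-positive-labelled and 14.1%, 32.4% and 14.9% in Axin2-negative-labelled libraries. Per kb of exon, Ces1c stayed above Ces3a in the male replicate 2, at 1764 against 1302 CPM per kb in the Axin2-positive-labelled library and 1066 against 999.7 CPM per kb in the Axin2-negative-labelled one.

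Other members of the family were at lower levels, and the deposited counts list 7 of them. Ces2c, which encodes a liver and intestinal enzyme active on acylglycerols, had 2.50, 96.6 and 30.0 CPM in Axin2-positive-labelled libraries 1, 2 and 3, against 2.10, 14.5 and 5.38 CPM in Axin2-negative-labelled libraries. It was higher in every pair, with a log2 fold change of 2.56 over 6 libraries (SE 1.30; edgeR adjusted p = 0.999) and 2.62 in the fit of replicates 2 and 3 (edgeR adjusted p = 0.00197). The authors' deposited table gives Ces2c 18.2 FPKM in the Axin2-positive group and 3.73 FPKM in the Axin2-negative group (q = 0.00961). Ces2g had 61.0, 26.5 and 30.6 CPM in Axin2-positive-labelled libraries, against 63.5, 52.3 and 49.0 CPM in Axin2-negative-labelled libraries. Its log2 fold change was -0.48 over 6 libraries (SE 0.33; edgeR adjusted p = 0.999) and -0.83 in the fit of replicates 2 and 3 (edgeR adjusted p = 0.0186). That fit also called the pseudogene Ces2d-ps higher and Ces4a lower, each at 2.09 CPM or less in every library. Ces1a, Ces2b and Ces2f stayed at 0.684 CPM or less.

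Among genes with related work, 4 lists were read from the same fits, and over 6 libraries 0 members of any were called. In the fit of replicates 2 and 3, the share of all genes called was 3.43% higher and 4.01% lower, against which the counts below are read. Of 21 tested genes of lipid ester hydrolysis, the fit of replicates 2 and 3 called 4 higher (Abhd5, Abhd6, Nceh1 and G0s2) and 1 lower (Pnpla2). The median log2 fold change of the list was -0.03 over 6 libraries and -0.023 in that fit. Nceh1, a cholesteryl ester hydrolase, had 23.5, 34.2 and 41.2 CPM in Axin2-positive-labelled libraries, against 23.9, 16.9 and 22.5 CPM in Axin2-negative-labelled libraries. Pnpla2, the main triglyceride lipase of lipid droplets, had 46.7, 40.7 and 46.0 CPM in the Axin2-positive-labelled and 46.8, 54.0 and 61.5 CPM in the Axin2-negative-labelled ones. Thus hydrolases of this list lay on both sides within replicates 2 and 3. Of 14 tested genes of drug and toxin hydrolysis, that fit called 2 higher (Pon1 and Cmbl) and 1 lower (Gusb). The median of this list was 0.09 over 6 libraries and 0.11 in that fit. Pon1, a paraoxonase that the liver secretes, had 865, 1484 and 1623 CPM in Axin2-positive-labelled libraries, against 850, 730 and 895 CPM in Axin2-negative-labelled libraries. Aadac, a microsomal esterase, was level at 432, 470 and 386 CPM in the Axin2-positive-labelled and 417, 437 and 380 CPM in the Axin2-negative-labelled ones. Of 19 genes of lipoprotein assembly and triglyceride synthesis, Tm6sf2 and Lpin1 were called lower in replicates 2 and 3 and 0 higher. The median of this list was 0.07 over 6 libraries and 0.092 in that fit. Mogat1, at 0.545 CPM or less in every library, was higher in every pair. Its log2 fold change over 6 libraries was 2.25 (SE 0.88, edgeR adjusted p = 0.999). That of Pdia4 was 0.26 (SE 0.13, edgeR adjusted p = 0.999) and that of Lpin1 -0.44 (SE 0.22, edgeR adjusted p = 0.999).

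Of 18 regulators of Ces and other drug-metabolism genes, the fit of replicates 2 and 3 called 2 higher (Nr1i3 and Ahr), beside 3.43% of all genes, and 0 lower, beside 4.01%. The median log2 fold change of the regulators was -0.04 over 6 libraries and -0.076 in that fit. Nr1i3, the xenobiotic receptor CAR, had 151, 143 and 198 CPM in Axin2-positive-labelled libraries, against 151, 80.9 and 126 CPM in Axin2-negative-labelled libraries, and a log2 fold change of 0.46 over 6 libraries (SE 0.26; edgeR adjusted p = 0.999). Nr1i2, the receptor PXR, had 64.3, 51.0 and 62.5 CPM in Axin2-positive-labelled and 65.1, 59.1 and 82.5 CPM in Axin2-negative-labelled libraries. The receptors thus differed in sign within replicates 2 and 3, and Nr1i2 was not called there (edgeR adjusted p = 0.112). Rxra, their partner, had 343, 365 and 361 CPM in the Axin2-positive-labelled and 349, 513 and 445 CPM in the Axin2-negative-labelled ones (edgeR adjusted p = 0.0999 in replicates 2 and 3). Nfe2l2, another of the regulators, had a log2 fold change of 0.21 over 6 libraries (SE 0.13, edgeR adjusted p = 0.999).

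The genes most like each carboxylesterase were sought over the 6 libraries by the root mean square distance of log2 levels centred on the gene's mean, among 7224 genes outside the family with a mean of at least 10 CPM. Ces1g lay closest to Gcat (distance 0.06), Pdzk1 (0.083) and Enpep (0.088), and Ces1c to Cdkn2aip (0.082), Brp44l (0.085) and Akr1d1 (0.089). Ces1e had Vgll4 (0.14), Gm12070 (0.15) and Ethe1 (0.15) as nearest genes, and Ces2e had Immp1l (0.05), 1810035L17Rik (0.075) and Adra1b (0.075). Ces1d was nearest to Tmem37, Dbi and Rpl22l1, Ces1b to Styx, Iqgap2 and Papd5, and Ces1f to Zhx3, Baz2a and Fn3k. Ces2a was nearest to Scp2, Tmem19 and Tnk2, Ces3a to Pdilt, Zfp445 and C8a, and Ces3b to Atxn7l1, Gmppa and Hhex. Within the family, Ces1c and Ces1g were each other's nearest (0.15), as were Ces1e and Ces3b (0.23). These distances are a description over libraries that share replicates.

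Markers of hepatocyte zones and of other cells moved with the groups in replicates 2 and 3. The 10 pericentral markers summed to 3028, 21453 and 18072 CPM in Axin2-positive-labelled libraries 1, 2 and 3, against 3065, 4837 and 6399 CPM in Axin2-negative-labelled libraries. The 10 periportal markers summed to 10731, 6190 and 8415 CPM in the Axin2-positive-labelled and 10741, 14029 and 14522 CPM in the Axin2-negative-labelled ones. Of these lists the fit of replicates 2 and 3 called 8 pericentral genes higher and 9 periportal genes lower. It also called lower 6 of 7 tested Kupffer markers, 2 of 3 tested bile duct markers (Spp1 and Sox9, the second also on the periportal list) and 2 of 6 hepatocyte markers (Apoa1 and Ass1, the second also on the periportal list). It called 0 of 10 endothelial and 0 of 5 stellate markers. Of 10 Kupffer markers 9 were listed, and they summed to 0.380 to 4.12 CPM in Axin2-positive-labelled libraries and 3.18 to 27.5 CPM in Axin2-negative-labelled libraries. In Axin2-positive-labelled libraries the 10 endothelial markers summed to 2.17 to 67.2 CPM, the 8 stellate markers to 0.203 to 5.67 CPM and the 7 bile duct markers to 15.0 to 33.8 CPM. In Axin2-negative-labelled libraries the sums were 6.76 to 97.8 CPM for endothelial and 0.946 to 6.04 CPM for stellate markers. Bile duct markers summed to 22.0 to 34.8 CPM there. In both groups the lowest endothelial and stellate sums were those of replicate 2. The bile duct genes Krt19 and Krt7 were at 0.115 CPM or less in every library, and the 3 listed lymphocyte markers summed to at most 0.479 CPM. The 3 listed intestinal markers summed to 42.1 to 54.6 CPM in Axin2-positive-labelled and 33.1 to 51.7 CPM in Axin2-negative-labelled libraries, nearly all of it from Fabp2, a fatty acid binding protein gene, while Vil1 and Cdx2 reached at most 0.319 and 0.0114 CPM. The part of zone or of other cells in the carboxylesterase differences was not tested.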

How the data were processed

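RNA-seq counts of 6 libraries of sorted hepatocytes were analysed. The authors deposited read counts per gene symbol, as whole numbers that they named raw reads. TopHat2 2.0.11 and the mm10 build are named in the submitters' processing notes. Which gene counter was used, and whether it used strand, is not given in the sources used here. A second deposited table, by transcript, holds an expression value for either group, and the p-value and q-value columns are named per the file headers. Its columns are those of Cuffdiff, which reports FPKM, and Cuffdiff 2.2.2 is among the tools in the submitters' processing notes, so the deposited values were read as FPKM.

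Counts were filtered and TMM-scaled and tested with edgeR 4.0.16 in R 4.3.3 (quasi-likelihood F test, group only, Benjamini-Hochberg adjustment over all genes, threshold 0.05). SEs are the log2 fold change over the root of F. Log2 differences within a replicate number used an offset of 0.05 CPM. Alternatives used DESeq2 1.42.0, limma-voom (limma 3.58.1), other scalings, no filter, a threshold of 0.01, a replicate block and leaving out single libraries; fits without both libraries of a replicate were added after the data were seen. Each tool was tested on simulated counts, with no replicate effect and no library that went against its label. The fits of replicates 2 and 3 were not among the settings simulated, so the simulation says nothing about them. The members, lists and alternatives were chosen with earlier results of these data known. Nothing in the labels ties libraries to separate mice, and p-values measure only the spread between libraries, which may be technical. As a pairing check, deviations from the group means were correlated over genes for each index. For a shared index r was 0.68, 0.82 and 0.75, above the limit of 0.1 each time. For unlike indices r ran from -0.61 (Axin2-positive 2 with Axin2-negative 1) to 0.14 (Axin2-positive 1 with Axin2-negative 3). The highest of these also passed 0.1, so that limit alone did not separate them. The shared index was taken to pair the libraries.

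Named genes were the 10 members, other Ces genes, up to 3 genes with the lowest p over 6 libraries in each of 4 lists, the 3 genes most like each member and 5 sort and zone genes, of which Axin2 is given. Genes called in the fit of replicates 2 and 3, Gusb as the partner of Ces1e, Aadac and Nr1i2 were named after their values were seen. Levels per length used the union of GENCODE M21 exons (GRCm38), and all 10 genes overlapped the authors' loci. Intervals from counting cover counting error only.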

Additional observations from a re-analysis of the deposited data

How the results depend on the processing

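Over 6 libraries 0 genes were called, and this held with RLE scaling, no scaling factor, no filter, DESeq2, limma-voom, a threshold of 0.01 and the replicate block. Leaving out 1 library gave 0 to 1 genes higher and 0 to 5 lower, with all calls coming without the Axin2-positive-labelled library 1, and 0 of the 10 carboxylesterases in each case. Without both libraries of replicate 1, the replicate block fit called 425 genes higher and 497 lower, among them 1 carboxylesterase in each direction; against a fold of 1.5 it called 98 and 110. Without both libraries of replicate 2, or of replicate 3, it called 0. With the replicate block over 6 libraries the median log2 fold change of the 10 genes was 0.26, the block changed no call, and the mean difference in read share stayed 0.166 percentage points (exact two-sided sign flip test of 3 pairs, p = 0.25, the smallest it can give).

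Ces1b, Ces1c, Ces1d, Ces1e, Ces1g, Ces2e and Ces3a kept their direction in 15 of 15 alternatives each, but not their size. The alternatives reuse the same 6 libraries, so a kept direction gives no independent evidence. How many of all genes kept theirs was not counted. Leaving out 1 library gave log2 fold changes of 0.096 to 0.29 for Ces1b, 0.15 to 0.49 for Ces1c, 0.21 to 0.57 for Ces1d, -0.80 to -0.21 for Ces1e, -0.24 to -0.026 for Ces1f, 0.31 to 0.55 for Ces1g, -0.34 to 0.50 for Ces2a, 0.28 to 0.52 for Ces2e, 0.045 to 1.05 for Ces3a and -0.40 to 0.12 for Ces3b. The median of the 10 was 0.0998 to 0.28, lowest without Axin2-positive 2. Ces2a turned to a log2 fold change of -0.0084 with no scaling factor, to between -0.34 and -0.097 without Axin2-positive 2, Axin2-negative 1 or Axin2-negative 3, and to -0.067 without both libraries of replicate 3. Ces3b turned to between 0.015 and 0.12 without Axin2-positive 3 or Axin2-negative 2, and to 0.025 without both libraries of replicate 2, where Ces1f turned to 0.028. The cause was not tested. The share of reads in the 10 genes was higher in Axin2-positive-labelled libraries in every alternative as reported, by 0.111 to 0.246 percentage points when 1 library was left out. The alternative without the 20 most abundant genes was corrected after its first value had been seen: the first version also took Ces1c out of the member reads of Axin2-positive 3 and gave a difference of -0.0022 (exact permutation test, p = 1), and the corrected one, which changes the total only, gave 0.208 (p = 0.1). The counting SE of a log2 difference within a pair was at most 0.0226 for the 10 genes, so depth sets little of their spread.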
